A study of Homo sapiens with 6 samples.

Results

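The subject is 10 genes of the nuclear lamina and the inner nuclear membrane: *BANF1*, *LMNA*, *LMNB1*, *LMNB2*, *EMD*, *LBR*, *LEMD2*, *LEMD3*, *TMPO* and *SUN1*. They were taken by gene symbol from the 57820 genes of the deposited tables, and each symbol matched 1 gene. *BANF1* was selected on its own expression in these 6 libraries, being lower in CTCF-dRBR, so its difference between the groups is a description and carries no test. The other 9 genes were added for their place at the lamina. After removal of genes under 1 CPM (counts scaled to library size) in every library, 14044 genes were tested. These held 9 of the 10 genes, *LMNA* being left out for its low counts, and 8 of the 9 genes other than *BANF1*.

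The nuclear lamina is a meshwork of lamin filaments beneath the inner nuclear membrane that carries the nuclear envelope and anchors condensed chromatin. *BANF1* encodes barrier-to-autointegration factor (BAF), a small protein that binds double-stranded DNA and bridges it to lamins and to membrane proteins with a LEM domain. When the envelope reforms after mitosis, BAF coats the chromosomes and gathers the membrane around them. Emerin (*EMD*), LAP2 (*TMPO*), LEMD2 and MAN1 (*LEMD3*) carry a LEM domain. LBR binds B-type lamins and heterochromatin, and SUN1 belongs to the LINC complex, which couples the nucleus to the cytoskeleton.

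The study asked whether CTCF without its RNA-binding region (RBR) leaves gene expression as it is with the wild-type protein. SEM cells, an established human line, come from a B-cell acute lymphoblastic leukemia. In all 6 libraries the endogenous CTCF carried a miniAID-mClover3 tag and the cells expressed OsTIR1(F74G), so that 5-Ph-IAA, an auxin analog, has the tagged protein degraded. Cells stayed in 5-Ph-IAA for 24 h, and after the first 6 h doxycycline at 1 µg/mL was added for 18 h to induce HA-tagged CTCF. The 3 CTCF-WT libraries were from cells with the wild-type form and the 3 CTCF-dRBR libraries from cells with the form lacking the RBR. The labels of the CTCF-WT libraries do not name the HA-tagged transgene, and their titles assigned them. No source says that the replicates were separate cultures, so p-values measure only the spread between these libraries, which may be technical.

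*BANF1* (ENSG00000175334.3) lies on the plus strand at chr11:65769699-65771620 of GRCh37, and *EMD* (ENSG00000102119.6) on the plus strand at chrX:153607633-153609934. These 2 genes had the lowest log2 fold changes of the 9 genes tested, and the 250 bases before their RefSeq starts are shown for that reason. Those starts need not match the GRCh37 intervals: *BANF1* and its neighbor *EIF1AD* are 345 bases apart by RefSeq starts and 51 by GRCh37 intervals. The bases shown may therefore lie partly inside the interval of *BANF1*. The sequences are from RefSeq on GRCh38.p14, plus strand, at chr11:66002253-66002502 and chrX:154379045-154379294, read 5′ to 3′. Capitals mark CCGGAAG, a core letter string of ETS transcription factor sites, searched on both strands.
BANF1: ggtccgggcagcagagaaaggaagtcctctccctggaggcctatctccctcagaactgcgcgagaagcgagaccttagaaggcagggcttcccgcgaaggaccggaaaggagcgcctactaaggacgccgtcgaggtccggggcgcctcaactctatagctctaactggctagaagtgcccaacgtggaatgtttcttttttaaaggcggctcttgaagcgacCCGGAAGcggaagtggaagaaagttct
EMD: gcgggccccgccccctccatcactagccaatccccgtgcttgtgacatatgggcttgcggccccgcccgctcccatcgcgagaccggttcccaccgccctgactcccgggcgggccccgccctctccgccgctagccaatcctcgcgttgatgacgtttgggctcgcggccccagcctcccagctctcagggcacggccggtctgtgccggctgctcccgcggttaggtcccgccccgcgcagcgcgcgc
The window of *BANF1* held 1 match, 27 bases before the RefSeq start, and the window of *EMD* held 0. The string was chosen after the sequence was seen. It occurred in 3603 of 35116 RefSeq promoter windows (10.3%), each from 250 bases before to 50 bases after a start. Among the other lamina genes, *LEMD3* and *LMNB2* had it, 27 and 93 bases before their starts. *SUN1* had no entry.

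Total counts were 51732177 to 53166735 in CTCF-WT and 30034505 to 50457168 in CTCF-dRBR, the lowest in CTCF-dRBR replicate 1. This library stood apart: its Spearman correlation with the others across genes was at most 0.968, while other pairs reached 0.997. For each tested lamina gene, the log2 fold change without it is given beside that from all libraries. Protein-coding genes held 30.2% to 63.2% of the deposited TPM (abundance scaled for gene length and library) of a library, so levels between genes are given as TPM rescaled to protein-coding genes. Of 9 B-lineage markers, 8 were at 1 TPM or more in every library, and *DNTT* was below that. Their summed level was 723 to 859 TPM in CTCF-WT against 462 to 1030 in CTCF-dRBR, lowest in replicate 1. The 4 T cell markers summed to at most 0.901 TPM with *CD3D* at 0, the 3 erythroid markers to at most 0.127 and the 3 fibroblast markers to at most 0.949. The 4 myeloid markers summed to 6.87 to 8.4 TPM, with only *LYZ* above 1 and *ELANE* at 0.

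*BANF1* was lower in each CTCF-dRBR library than in each CTCF-WT library. Its TMM-normalized CPM were 102, 99.2 and 65.8 in replicates 1, 2 and 3 of CTCF-WT, against 24.8, 22.4 and 27.3 in those of CTCF-dRBR, an order kept for all genes below. The CTCF-dRBR libraries lay close together, while CTCF-WT replicate 3 was below its 2 fellow replicates. The means were 89.1 ± 20.2 CPM and 24.8 ± 2.46 CPM (SD, n = 3 each), the second being 27.8% of the first. The expected counts behind them were 3485 to 5093 in CTCF-WT and 741 to 1408 in CTCF-dRBR, far above the 3 counts that a count of 0 allows. In these bulk samples, fewer cells that express a gene and less of its RNA per cell cannot be told apart.

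The log2 fold change of *BANF1* was −1.82 with a standard error of 0.22, and it was −1.82 without CTCF-dRBR replicate 1. Of the 14044 genes tested, 102 had a lower log2 fold change (0.726%), 42 of them among the 11700 protein-coding genes. Deposited TPM had the same order of the groups and a smaller gap, with 59.7, 71.7 and 80.9 TPM in the CTCF-WT libraries, against 35.4, 31.3 and 29.6 in those of CTCF-dRBR. The means were 70.8 ± 10.6 TPM and 32.1 ± 2.98 TPM (SD, n = 3 each). Rescaled to protein-coding genes, *BANF1* had 184 ± 25.7 TPM in CTCF-WT against 60.4 ± 6.55 in CTCF-dRBR. Reads could in principle be shared with processed copies of the gene elsewhere. The pseudogenes *BANF1P1* to *BANF1P5*, and *TMPOP1* of *TMPO*, had at most 4.91 counts in any library.

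**Figure D1:**
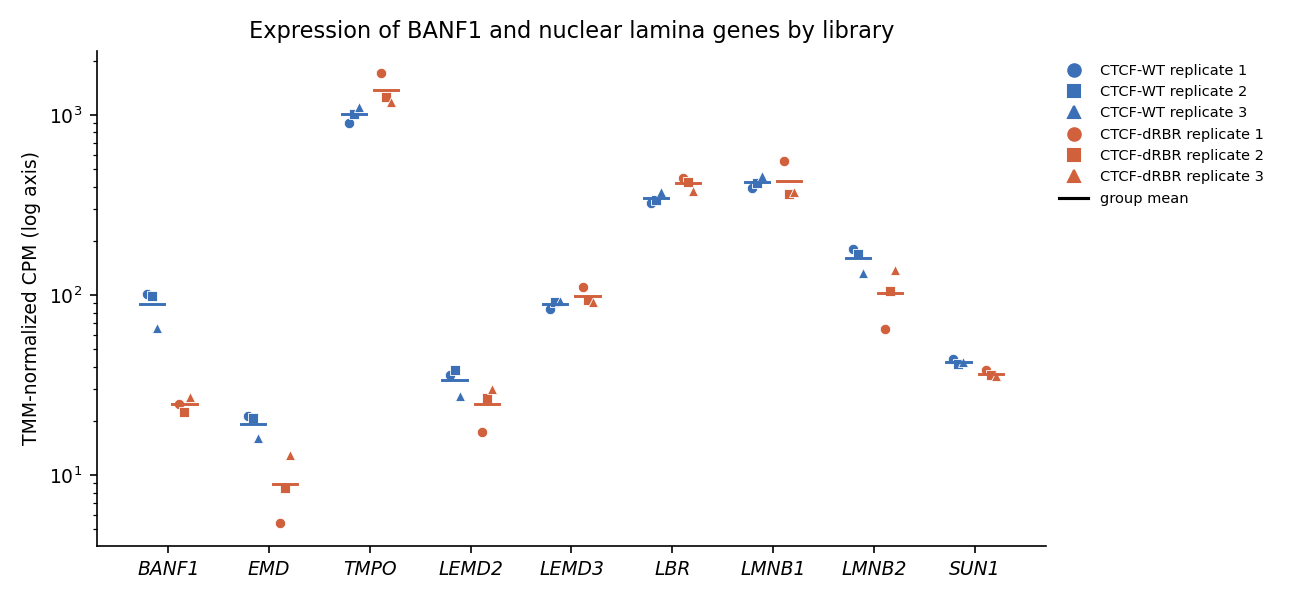
TMM-normalized CPM of the 9 tested genes in each library, on a log axis, with a point for each library (shape for replicate, color for group) and a bar for each group mean (*LMNA* is not drawn). *BANF1*, *EMD* and *SUN1* are lower in every CTCF-dRBR library than in every CTCF-WT library, *TMPO* and *LBR* are higher in every one, and the other 4 genes overlap between the groups.

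The genes other than *BANF1* were tested across all 14044 genes by limma-voom (two-sided, Benjamini-Hochberg). None of the 8 passed FDR < 0.05, and 0.0% of all genes did. At an unadjusted p under 0.05 there were 4 of the 8, against 3569 of all genes. With edgeR's quasi-likelihood test, 0 of the 8 passed, with 3 at an unadjusted p under 0.05, beside 0 and 3462 of all genes. Their median log2 fold change was −0.11, beside −0.0076 for all genes. The groups had no overlap in CPM for *EMD* and *SUN1*, lower in CTCF-dRBR, and for *TMPO* and *LBR*, higher in CTCF-dRBR. Of all genes tested, 17.5% were lower and 20.0% higher without overlap, so 2 of 8 in each direction is near the background. Without CTCF-dRBR replicate 1, 3 of the 8 were lower and 2 higher without overlap, beside 22.9% and 25.0% of all genes.

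**Figure D2:**
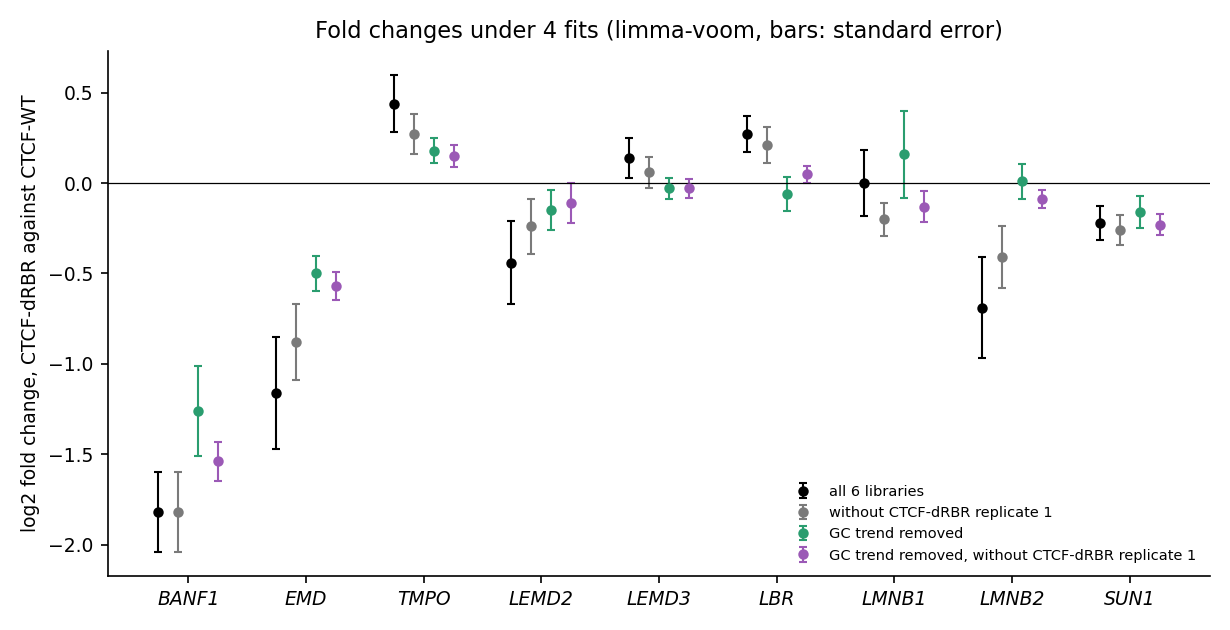
Log2 fold change of CTCF-dRBR against CTCF-WT with standard errors for the 9 lamina genes tested, from 4 fits: all libraries, without CTCF-dRBR replicate 1, with the trend over GC content removed, and with both. *BANF1* stays between −1.26 and −1.82, while *LMNB2* moves from −0.69 to 0.01 when the GC trend is removed.

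Of the LEM-domain partners of BAF, *EMD* had the lowest fold change. Emerin is the inner nuclear membrane protein whose loss causes X-linked Emery-Dreifuss muscular dystrophy. *EMD* had 21.3, 20.8 and 16 CPM in the CTCF-WT libraries, against 5.42, 8.49 and 12.9 in those of CTCF-dRBR. The groups did not overlap, and the lowest value was that of CTCF-dRBR replicate 1. The means were 19.4 ± 2.93 and 8.94 ± 3.77 CPM (SD, n = 3 each), the second 46.1% of the first. The log2 fold change was −1.16 with a standard error of 0.31 (adjusted p = 0.138), and −0.88 without CTCF-dRBR replicate 1 (adjusted p = 0.067). DESeq2 gave −1.11 (adjusted p = 0.0165), and over the alternatives the adjusted p lay between 0.000197 and 0.482. In deposited TPM the groups met, with 8.52 in CTCF-WT replicate 1 and 8.53 in CTCF-dRBR replicate 3. Rescaled to protein-coding genes they did not, with 28.2, 32.2 and 25.7 TPM in the CTCF-WT libraries, against 9.42, 14.9 and 19.6 in those of CTCF-dRBR.

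*TMPO*, which encodes the LAP2 proteins and lies at chr12:98909357-98944129, went the other way from *EMD*. It had 902, 1012 and 1113 CPM in the CTCF-WT libraries, against 1705, 1255 and 1179 in those of CTCF-dRBR. The groups did not overlap, with the highest value in CTCF-dRBR replicate 1. The log2 fold change was 0.44 with a standard error of 0.16 (adjusted p = 0.182), and 0.27 without that library (adjusted p = 0.152). *TMPO* overlaps *TMPO-AS1* on the opposite strand, which had mean counts of 869 (CTCF-WT) and 777 (CTCF-dRBR), and how the counting used the strand is not given in the sources used here.

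*LEMD2* and *LEMD3* overlapped between the groups. LEMD2 helps to recruit the ESCRT machinery that closes the reforming envelope, and *LEMD2* had 35.9, 38.3 and 27.6 CPM in the CTCF-WT libraries, against 17.3, 26.9 and 30.1 in those of CTCF-dRBR. Its log2 fold change was −0.44 with a standard error of 0.23 (adjusted p = 0.25), and it was −0.24 without CTCF-dRBR replicate 1. *LEMD3*, whose product MAN1 also binds SMAD proteins, had 83.6, 91 and 92.7 CPM in the CTCF-WT libraries, against 111, 94.1 and 92 in those of CTCF-dRBR. Its log2 fold change was 0.14 with a standard error of 0.11 (adjusted p = 0.377), and it was 0.06 without that library. For both genes the value farthest from the other group was that of CTCF-dRBR replicate 1.

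The balance between BAF and its LEM-domain partners was compared within libraries, on the per-length scale. For each 100 TPM of *EMD*, *TMPO*, *LEMD2* and *LEMD3* together there were 34.5, 30.2 and 18.7 TPM of *BANF1* in CTCF-WT and 4.8, 5.96 and 7.61 TPM in CTCF-dRBR. The means were 27.8 ± 8.14 and 6.12 ± 1.41 (SD, n = 3 each). The ratio rests on *BANF1* and so carries no test. Most of the sum was *TMPO*, with a mean of 240 TPM in CTCF-WT and 494 in CTCF-dRBR. The means were 11.2 and 7.54 TPM for *EMD*, 14.5 and 20.9 for *LEMD2*, and 15 and 27 for *LEMD3*. The ratio is thus mainly that of *BANF1* to *TMPO*, which was itself higher in CTCF-dRBR. *BANF1* has 58.9% GC and *TMPO* 40.9%, so comparing within libraries does not remove a trend over GC content.

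The B-type lamins, which stay bound to the membrane through their farnesyl tail, were the abundant lamins. *LMNB1* at chr5:126112315-126172712 had 395, 421 and 458 CPM in the CTCF-WT libraries, against 558, 366 and 374 in those of CTCF-dRBR. CTCF-dRBR replicate 1 was the highest of the 6 libraries and the other two CTCF-dRBR libraries were the lowest. The means were 424 ± 31.7 and 433 ± 109 CPM (SD, n = 3 each), with a log2 fold change of 0.00046 and a standard error of 0.18 (adjusted p = 0.999). Without CTCF-dRBR replicate 1 it was −0.20 with a standard error of 0.091 (adjusted p = 0.188).

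*LMNB2* at chr19:2427636-2456957 had 181, 170 and 132 CPM in the CTCF-WT libraries, against 64.8, 105 and 138 in those of CTCF-dRBR. The groups overlapped through the replicates numbered 3. The log2 fold change was −0.69 with a standard error of 0.28 (adjusted p = 0.193), and −0.41 without CTCF-dRBR replicate 1 (adjusted p = 0.156). *LMNB1* made up 83.5% ± 3.04 of the summed TPM of both B-type lamin genes in CTCF-WT and 87.6% ± 4.4 in CTCF-dRBR (SD, n = 3 each), with overlapping ranges.

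*LMNA*, the gene of lamins A and C, was at or near the limit of detection in both groups. It had 1, 0 and 9 counts in the CTCF-WT libraries, against 7, 5 and 7 in those of CTCF-dRBR, of 30034505 to 53166735 counts a library. The 0 in CTCF-WT replicate 2 allows up to 0.0584 CPM. Of the summed TPM of the 3 lamin genes, *LMNA* held 0.0215% ± 0.0233 in CTCF-WT and 0.0563% ± 0.0248 in CTCF-dRBR (SD, n = 3 each). The ranges of the shares overlapped (exact permutation test, two-sided, p = 0.2, where the smallest possible is 0.1).

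LBR tethers heterochromatin to the lamina and also reduces sterols in cholesterol synthesis. *LBR* at chr1:225589204-225616627 had 326, 337 and 374 CPM in the CTCF-WT libraries, against 446, 425 and 379 in those of CTCF-dRBR. The groups did not overlap, but CTCF-WT replicate 3 and CTCF-dRBR replicate 3 were close. The log2 fold change was 0.27 with a standard error of 0.10 (adjusted p = 0.186), and it was 0.21 without CTCF-dRBR replicate 1 (adjusted p = 0.2).

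*SUN1* at chr7:856252-936072 varied little within the groups. It had 44.1, 41.6 and 42.3 CPM in the CTCF-WT libraries, against 38.5, 35.9 and 35.7 in those of CTCF-dRBR. Here too the groups stood apart, with means of 42.7 ± 1.27 CPM in CTCF-WT and 36.7 ± 1.59 in CTCF-dRBR (SD, n = 3 each). The log2 fold change was −0.22 with a standard error of 0.095 (adjusted p = 0.2, with a range of 0.00282 to 0.751 over the alternatives), and it was −0.26 without CTCF-dRBR replicate 1 (adjusted p = 0.109). *SUN1* overlaps *GET4* on the same strand, which had mean counts of 677 (CTCF-WT) and 347 (CTCF-dRBR).

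On the per-length scale, the order of levels was led by *TMPO* and *LMNB1* in both groups. In CTCF-WT the median protein-coding TPM were 556 for *TMPO* and 337 for *LMNB1*, followed by 197 for *BANF1* and 183 for *LBR*, whose ranges overlapped. *LMNB2* followed at 67.6. *LEMD2* at 37.6 and *LEMD3* at 35.9 overlapped, and so did *EMD* at 28.2 and *SUN1* at 26.9. In CTCF-dRBR, *BANF1* came after *LBR* at 226, with a median of 57.4 TPM. There it overlapped *LMNB2* at 51.9, which in turn overlapped *LEMD3* at 47.7. *LMNA* was last in both groups, at 0.0661 and 0.207 TPM.

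Fold changes across the transcriptome followed base composition, and the lamina genes span much of its range. Over the 13654 genes with a known GC content, Spearman's rho between the log2 fold change and the GC content of the longest transcript was −0.677, a description across genes that share the same 6 libraries. *LBR* at 37.8% GC, *TMPO* at 40.9% and *LEMD3* at 43.3% had log2 fold changes above 0. *LEMD2* at 54.1%, *BANF1* at 58.9%, *EMD* at 60.5% and *LMNB2* at 61.1% had log2 fold changes below 0. *SUN1* at 49.3% and *LMNB1* at 51.1% lay between, at −0.22 and 0.00046. Genes within 2 percentage points of *BANF1* had a median log2 fold change of −0.54 (1392 genes), those near *EMD* −0.61 (1298 genes) and those near *LMNB2* −0.64 (1212 genes). Near *LBR* and *TMPO* the medians were 0.30 and 0.24, and near *SUN1* and *LMNB1* they were −0.07 and −0.16.

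**Figure D3:**
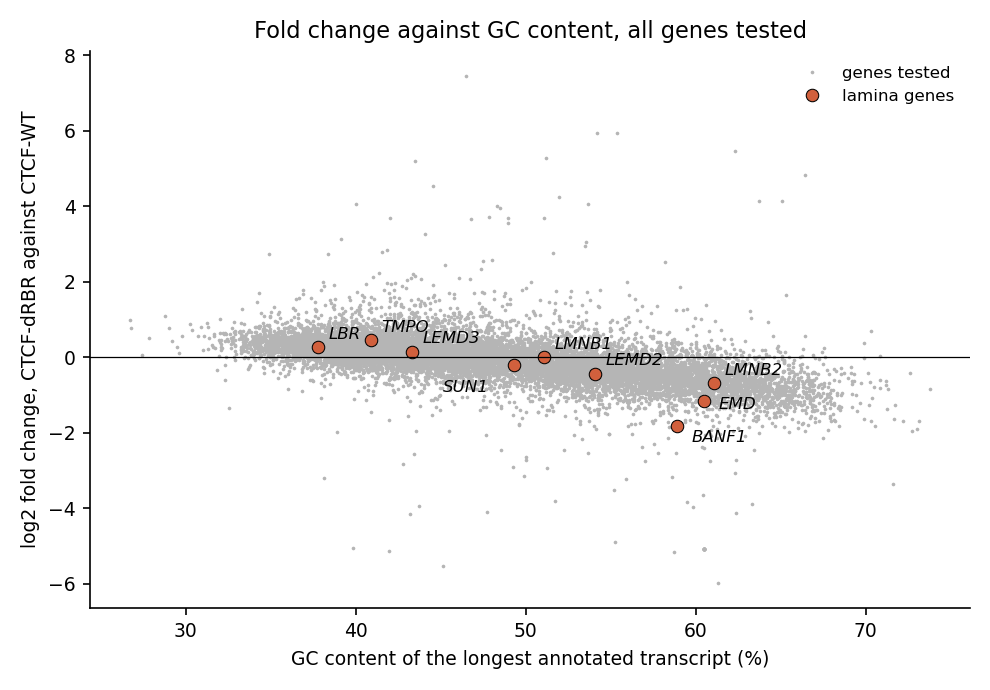
Log2 fold change of CTCF-dRBR against CTCF-WT for each gene tested against the GC content of its longest annotated transcript, with the lamina genes marked. The cloud slopes downward, and *LMNB2* and *LBR* lie within it. *BANF1*, chosen for being lower in CTCF-dRBR, lies at −1.82, where genes of like GC content have a median of −0.54.

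With the GC trend removed from each library, the log2 fold change of *BANF1* was −1.26 with a standard error of 0.25, and 120 of 13654 genes had a lower one. Without CTCF-dRBR replicate 1 as well, it was −1.54 with a standard error of 0.11, and 61 of 13360 genes were lower. For *EMD* the value became −0.50 with a standard error of 0.099 (adjusted p = 0.0351 by limma-voom), which passed the threshold that 8.89% of all genes passed. It was the 1 of the 8 tested genes to pass. *LMNB2* went to 0.01 (adjusted p = 0.942), *LBR* to −0.06 (adjusted p = 0.707), *TMPO* to 0.18 (adjusted p = 0.14) and *LEMD2* to −0.15 (adjusted p = 0.395). With the trend removed and CTCF-dRBR replicate 1 left out, *EMD* at −0.57 (adjusted p = 0.00935) and *SUN1* at −0.23 (adjusted p = 0.0404) passed, as did 23.5% of all genes.

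The count of lamina genes past FDR < 0.05 differed between tests, and so did that of all genes. DESeq2 called *EMD* alone of the 8 and 11.5% of all genes. voomWithQualityWeights, which weights each library by its spread and gave CTCF-dRBR replicate 1 a weight of 0.0969, called 7 of the 8, all but *LEMD3*, and 68.2% of all genes. Leaving out CTCF-dRBR replicate 1 called 0 of the 8 and 3.9% of all genes.

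The neighborhood of *BANF1* was examined for genes within 50 kb on either side. *EIF1AD*, a gene for a protein related to a translation initiation factor, starts on the opposite strand at chr11:65764016-65769647, and 51 bases separate it from *BANF1*. The RefSeq starts of this divergent pair are 345 bases apart, unlike the 51 bases between the GRCh37 intervals. Their RefSeq promoter windows share 155 bases, and that of *EIF1AD* also holds CCGGAAG, 5 bases before its RefSeq start. *EIF1AD* had 24.9, 27.1 and 29.1 CPM in the CTCF-WT libraries, against 23, 21.1 and 24.2 in those of CTCF-dRBR. The groups did not overlap, but the log2 fold change was −0.25 with a standard error of 0.12 (adjusted p = 0.229), beside −1.82 for *BANF1*.

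*SART1* and *SF3B2*, both with roles in splicing, were the other tested neighbors, 22090 and 46579 bases away. *SART1* had 56.7, 54.4 and 50.8 CPM in the CTCF-WT libraries, against 29.7, 31.2 and 44.5 in those of CTCF-dRBR. Its log2 fold change was −0.62 with a standard error of 0.17 (adjusted p = 0.14), and −0.03 with the GC trend removed. *SF3B2* had 218, 205 and 215 CPM in the CTCF-WT libraries, against 163, 153 and 181 in those of CTCF-dRBR. It was at −0.36 (adjusted p = 0.138), and at −0.45 with the GC trend removed (adjusted p = 0.0319, with a range of 0.000397 to 0.633 over the alternatives). All 3 neighbors were lower in CTCF-dRBR without overlap, as were 17.5% of all genes. Each log2 fold change was smaller in size than that of *BANF1*, which was chosen for being lower. The other 7 genes of the window, among them *CATSPER1* and *TSGA10IP*, were under the filter, at 0, or in 1 case not listed.

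**Figure D4:**
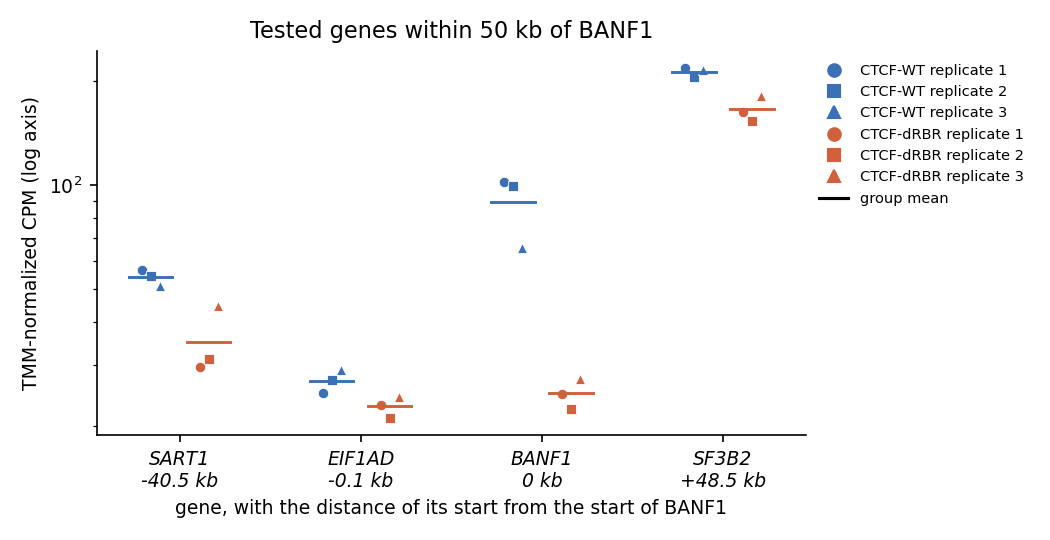
TMM-normalized CPM on a log axis in each library for *BANF1* and the 3 tested genes within 50 kb, in order along the chromosome, with a point for each library (shape for replicate, color for group) and a bar for each group mean. The gap between the groups is wider for *BANF1*, chosen for being lower in CTCF-dRBR, with means of 89.1 and 24.8 CPM, than for *EIF1AD*, *SART1* or *SF3B2*.

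The 5 genes most like *BANF1* by Pearson correlation of log2 CPM over the 6 libraries were *TOMM22*, *SNRPC*, *NDUFAB1*, *MDN1* and *CTD-2583A14.11*, with r from 0.9961 to 0.9991. *TOMM22* encodes a receptor of the mitochondrial import pore, *SNRPC* a protein of the U1 snRNP and *NDUFAB1* the mitochondrial acyl carrier protein. The correlation follows the shape over the libraries and not the size. *TOMM22* had a mean of 114 ± 10.4 CPM in CTCF-WT against 71.5 ± 3.26 in CTCF-dRBR (SD, n = 3 each), a log2 fold change of −0.67. The other 4 lay between −0.35 and −0.78. The 6 points share their libraries and fall into the 2 groups by which *BANF1* was chosen, so no p was computed.

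Genes that work with BAF and the lamina were described from 8 lists, which held 86 genes, 84 of them in the tables and 83 tested. None of the 83 passed FDR < 0.05 by limma-voom, and the median log2 fold change was −0.05. At an unadjusted p under 0.05, 3 were higher and 14 lower, beside 3569 of the 14044 genes in either direction. The split of all genes by direction at that p is not given, so these counts are no result about the lists. Without overlap, 17 were lower (20.5%) and 11 higher (13.3%), beside 17.5% and 20.0% of all genes, the shares against which the counts of each list also stand. By list, the medians lay between −0.34 for other inner nuclear membrane genes and 0.14 for the regulators of BAF.

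**Figure D5:**
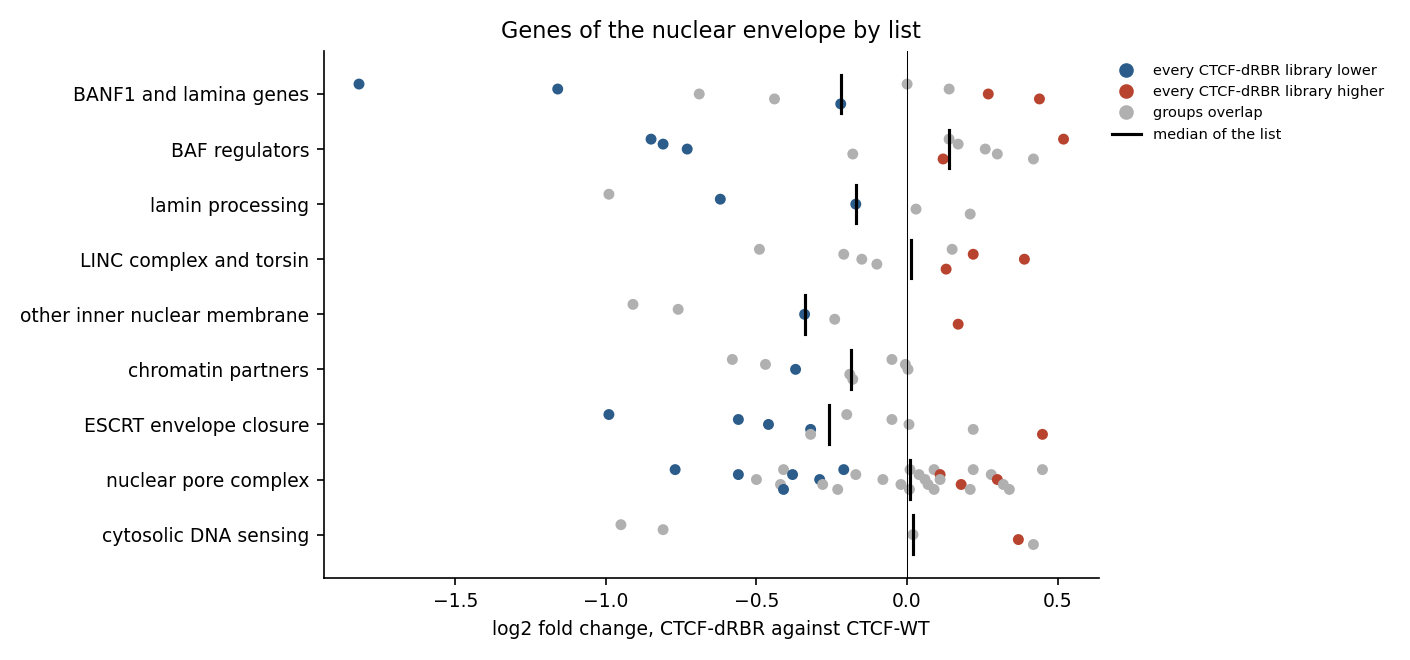
Log2 fold change of CTCF-dRBR against CTCF-WT of each tested gene, by list, with colors for genes whose groups do not overlap and a bar for the list median. *BANF1*, chosen for being lower in CTCF-dRBR, is at −1.82, lower than every other gene drawn, and the list medians lie between −0.34 and 0.14.

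BAF is released from DNA and LEM proteins when the VRK kinases phosphorylate it, and phosphatases of the PP2A and PP4 type reverse this. *VRK1*, named here for that role and after its values were seen, had 115, 115 and 139 CPM in the CTCF-WT libraries, against 226, 147 and 134 in those of CTCF-dRBR. The groups overlapped, with a log2 fold change of 0.42 and a standard error of 0.21 (adjusted p = 0.236), and CTCF-dRBR replicate 1 was the highest. It was 0.19 without that library and 0.04 with the GC trend removed. Of the 11 regulators tested, 3 were lower and 2 higher without overlap. The smallest p in the list were those of *ANKLE1*, a LEM-domain nuclease, at −0.73 (standard error 0.21, adjusted p = 0.142), and *PPP4R2*, a subunit of PP4, at 0.52 (standard error 0.16, adjusted p = 0.149). With the GC trend removed they were at −0.11 (adjusted p = 0.61) and 0.14 (adjusted p = 0.168).

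Of the 5 genes for the farnesylation, cutting and methylation of lamins, 2 were lower and 0 higher without overlap, *FNTB* and *ICMT*, the second named after its values were seen. *FNTB*, the beta subunit of farnesyltransferase, was at −0.62 (adjusted p = 0.204), and the methyltransferase gene *ICMT* at −0.17 (adjusted p = 0.324). *RCE1*, the protease that trims the farnesylated end, was at −0.99 with overlap (adjusted p = 0.21). Without CTCF-dRBR replicate 1, *FNTB* was at −0.34 and *RCE1* at −0.52, and with the GC trend removed they were at −0.36 and −0.21. Of the 8 LINC complex and torsin genes tested, 0 were lower and 3 higher without overlap. *SYNE2*, the gene of the actin-binding nesprin-2, had a mean of 233 ± 10.4 CPM in CTCF-WT against 310 ± 61.8 in CTCF-dRBR (SD, n = 3 each), a log2 fold change of 0.39 (adjusted p = 0.184). Leaving out CTCF-dRBR replicate 1 gave 0.23, and removing the GC trend gave 0.19. *TOR1B*, a torsin ATPase, was at 0.22 (adjusted p = 0.247).

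Among the other inner nuclear membrane genes, 5 of 7 were tested, with 1 lower and 1 higher without overlap. *TMEM43*, an emerin partner, was at −0.34 (adjusted p = 0.203) and at −0.22 without CTCF-dRBR replicate 1. *TMEM194A* was at 0.17 (adjusted p = 0.252) and at −0.08 with the GC trend removed. Of the 8 chromatin partners, 1 was lower without overlap. This was *CBX5*, which encodes the heterochromatin protein HP1 alpha, with a mean of 474 ± 65.9 CPM in CTCF-WT against 366 ± 34.4 in CTCF-dRBR (SD, n = 3 each) and a log2 fold change of −0.37 (adjusted p = 0.176), or −0.60 with the GC trend removed (adjusted p = 0.101).

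The ESCRT genes, whose products close the holes left in the reforming envelope, had 4 of 10 lower and 1 higher without overlap (17.5% and 20.0% for all genes), with a median of −0.26. *CHMP4B*, the ESCRT-III filament subunit, had the smallest p of all 83 genes. It had 46.9, 43.9 and 45.4 CPM in the CTCF-WT libraries, against 33.3, 30 and 29.8 in those of CTCF-dRBR. The groups were well apart, with a log2 fold change of −0.56 and a standard error of 0.10 (adjusted p = 0.0959). Without CTCF-dRBR replicate 1 it was −0.61 (adjusted p = 0.035), the 1 call among the 83, where 3.9% of all genes passed. With the GC trend removed it was −0.35 (adjusted p = 0.189). Over the alternatives its adjusted p reached 0.981. *SPAST*, whose product spastin severs microtubules at the envelope, was at 0.45 (adjusted p = 0.156), and at 0.18 with the GC trend removed.

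Of the 31 tested nuclear pore genes, 6 were lower and 3 higher without overlap. *GLE1*, an mRNA export factor, had a mean of 98.8 ± 2.36 CPM in CTCF-WT against 80.9 ± 4.96 in CTCF-dRBR (SD, n = 3 each), a log2 fold change of −0.29 (adjusted p = 0.151). *AAAS*, the gene of aladin, was at −0.77 (adjusted p = 0.156), and with the GC trend removed at −0.43 (adjusted p = 0.0444, with a range of 0.000275 to 0.949 over the alternatives). With that trend removed 4 of the 83 listed genes passed, all lower, where 8.89% of all genes did, so the count is no result about the lists. The others were *SEH1L*, *NCOR1* and *CBX3*, named after their values were seen. Their log2 fold changes were −0.49, −0.29 and −0.28 (adjusted p = 0.0202, 0.0394 and 0.0416), and over the alternatives their adjusted p reached 0.487, 0.507 and 0.988. Their groups overlapped in CPM, and before the removal *CBX3* was at 0.0034.

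BAF also shields DNA from cGAS, the sensor of cytosolic DNA. Of the 5 genes listed for that pathway, 0 were lower and 1 higher without overlap. *IRF3*, the transcription factor at its end, had a mean of 50.1 ± 10.6 CPM in CTCF-WT against 28.4 ± 10 in CTCF-dRBR (SD, n = 3 each), with overlap and a log2 fold change of −0.81 (adjusted p = 0.17). *TBK1*, the kinase that activates IRF3, was at 0.42 with overlap (adjusted p = 0.229), and at 0.21 without CTCF-dRBR replicate 1. With the GC trend removed, *IRF3* was at −0.25 and *TBK1* at 0.07. The 1 higher gene was *MB21D1*, which encodes cGAS, at 0.37 (adjusted p = 0.238), and at 0.21 with the GC trend removed. It was named after its values were seen.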

How the data were processed

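Total RNA of 3 CTCF-WT and 3 CTCF-dRBR libraries was sequenced after removal of ribosomal RNA. The methods describe paired-end reads and the labels single-end reads. The authors trimmed the reads with Trim Galore (0.6.3), aligned them to GRCh37 with STAR (2.7.9a) and quantified the Gencode genes with RSEM (1.3.1). The deposited values are expected counts, not normalized, and TPM, which the authors scaled to gene length and to 1 total per library. Spike-in sequences (92, with 0 counts) were left out.

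Genes that stayed under 1 CPM throughout were dropped. The remaining 14044 were normalized by TMM in edgeR (4.0.16) and tested by limma-voom (limma 3.58.1, R 4.3.3) without covariates, as in the methods of the study, with two-sided p-values and Benjamini-Hochberg adjustment across these genes. Printed CPM are TMM-normalized. A count of 0 allows up to 3 counts, between 0.0566 and 0.1 CPM, and these limits cover counting error only. To remove the GC trend, a loess curve (span 0.5, degree 2) over the GC content of the longest transcript was fitted in each library to the difference between its log2 CPM (prior count 1) and the mean, and subtracted. The reference genome and Gencode annotation on GRCh37 gave GC content (for 97.2% of the genes tested) and coordinates. Alternatives included, on rounded counts, DESeq2 (1.42.0) and the quasi-likelihood test of edgeR, then limma-trend on log2(TPM + 1) or with a pseudocount of 0.1, robust eBayes, voomWithQualityWeights, other filters and normalizations, the replicate number as a block, and leaving out each library. Simulated data with planted changes were used to check the code of these tests, the normalizations and the GC correction. The simulated spread was capped, so this check does not measure false calls in the deposited libraries. Lamin shares were compared by an exact permutation test (scipy 1.17.1), and figures were drawn with matplotlib (3.10.9).

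The genes and lists were chosen with earlier results of these data known. Besides the 10 genes, the genes named are those within 50 kb of *BANF1*, pseudogenes named after a lamina gene, the 5 tested genes most correlated with *BANF1*, and in each of the 8 lists the 2 genes with the smallest unadjusted p. Genes of the last 2 kinds had to average 1 TPM or more. One gene named by this rule is not reported here. Promoter sequences were from RefSeq, matched by symbol for 10 of 11 genes (the lamina genes and *EIF1AD*). Which strand the counting used is not given in the sources used here.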

Additional observations from a re-analysis of the deposited data

How the results depend on the processing

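*BANF1* was lower in CTCF-dRBR in every alternative run. Its log2 fold change was −1.82, and moved to −2.09 with voomWithQualityWeights, −1.11 on log2(TPM + 1), −1.13 on log2(TPM + 0.1), −1.26 with the GC trend removed, −1.23 with that and the replicate block, and −1.54 with the trend removed and without CTCF-dRBR replicate 1. Leaving out 1 library gave −2.02 to −1.71. Its difference in mean TPM was −38.7, −44.2 to −33.6 with 1 library left out, −123 in protein-coding TPM and −121 there without CTCF-dRBR replicate 1, the last chosen after seeing the data. The count of other lamina genes past FDR < 0.05 was 0, and became 1 with DESeq2, 7 with voomWithQualityWeights, 1 with the GC trend removed and 2 with that and without CTCF-dRBR replicate 1. The count over the 83 listed genes was 0, and became 3 (*ANKLE1*, *CHMP4B* and *GLE1*), 57, 4 and 16 under the same alternatives. Of all genes, 11.5%, 68.2%, 8.89% and 23.5% passed under these, in the same order. With 1 library left out the count over the 83 was 0 to 1, the 1 being without CTCF-dRBR replicate 1, where 3.9% of all genes passed. The cause was not tested.

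Directions changed for genes near 0 and on the TPM scales, which moved the median of all genes to 0.40 (pseudocount 1) and 0.54 (pseudocount 0.1). There the log2 fold changes were 0.09 and 0.10 for *LMNB2*, 0.53 and 0.57 for *LEMD2*, 0.19 and 0.21 for *SUN1*, 0.04 and 0.04 for *NDUFAB1*, 0.45 and 0.48 for *MDN1*, 0.22 and 0.25 for *TMEM43*, 0.45 and 0.46 for *CBX5*, 0.24 and 0.26 for *GLE1*, 0.04 and 0.04 for *AAAS*, 0.03 and 0.03 for *IRF3*, 0.42 and 0.42 for *SEH1L*, 0.63 and 0.64 for *NCOR1*, 0.29 and 0.30 for *SF3B2*, 0.05 and 0.06 for *EIF1AD*, and 0.22 and 0.23 for *SART1*. Protein-coding genes held 30.2%, 35.8% and 52.4% of deposited TPM in the CTCF-WT libraries, against 63.2%, 54.5% and 43.5% in those of CTCF-dRBR. Rescaled to protein-coding genes, the means of *LEMD2*, *MDN1* and *NCOR1* were still higher in CTCF-dRBR. Those of the other genes just named were lower, as in CPM, with *CBX5* at 78.9 TPM in CTCF-WT and 78.7 in CTCF-dRBR. *LMNB1* was at −0.19 with voomWithQualityWeights, −0.11 without the filter, −0.20 to 0.11 with 1 library left out and −0.13 with the GC trend removed and without CTCF-dRBR replicate 1. *CBX3* was at −0.07, −0.09, −0.15 to 0.12 and −0.29 in these, and *VRK1* at −0.01 in the last. With the GC trend removed, and with the replicate block added, *LMNB2* was at 0.01 and 0.01, *LBR* at −0.06 and −0.06, *LEMD3* at −0.03 and −0.04 (−0.03 without CTCF-dRBR replicate 1), *TMEM194A* at −0.08 and −0.08, and *CBX3* at −0.28 and −0.28.

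The groups share replicate numbers, and no source used here says whether these pair the samples. The deviations of same-numbered libraries correlated at −0.31, 0.0833 and −0.442 across genes, which cannot settle this. With the number as a block, no call was made (0 genes past FDR < 0.05, 1423 at an unadjusted p under 0.05), with *EMD* at an adjusted p of 0.419. With the GC trend removed and the replicate block, 0 genes passed. The difference in the *LMNA* share within same-numbered libraries was 0.0348 percentage points (exact permutation p = 0.25). This p is the smallest possible with 3 pairs, so the test could not show a difference. Without the block the difference was 0.0216 to 0.0471 with 1 library left out. Depth limits *LMNA* alone of the lamina genes, at 9 counts or fewer in each library.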

Other observations

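Among the 4 lamina genes other than *BANF1* whose groups did not overlap, the 2 higher genes had a GC content below the median of the tested genes, 47%, and the 2 lower ones above it. The Spearman correlation of a library's deviation from the mean with GC content was 0.704, 0.67 and 0.333 in CTCF-WT replicates 1, 2 and 3, and −0.774, −0.414 and 0.504 in CTCF-dRBR replicates 1, 2 and 3, across 13654 genes that are not independent replicates. The replicates numbered 3, both above 0 as were CTCF-WT replicates 1 and 2, were the libraries in which *LMNB2*, at 132 and 138 CPM, and *LBR*, at 374 and 379 CPM, lay closest between the groups. The groups of *EMD*, at 16 and 12.9 CPM, and of *BANF1*, at 65.8 and 27.3 CPM, were also closest in these libraries. So were those of *TMPO*, at 1113 and 1179 CPM, and of *LEMD3*, at 92.7 and 92 CPM. Other pairs of libraries were closest for *SUN1* (41.6 and 38.5 CPM), *LEMD2* (27.6 and 26.9 CPM) and *LMNB1* (395 and 374 CPM). Any tie to GC content was not tested.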
